A study of Mus musculus with 27 samples.

Results

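Transcripts of 10 glutathione S-transferase genes were followed in mouse ovary: Gsta3, Gsta4, Gstm1, Gstm2, Gstm5, Gstp1, Gsto1, Gstt1, Mgst1 and Mgst3. They were taken by name, as the rows of a gene count table whose Ensembl IDs carry these symbols in GENCODE M21. All 10 were found among 51789 gene rows, and each of the 27 libraries held counts for all of them. Experiment 1 compared ovaries of 5 young and 4 aged untreated mice with those of 4 aged mice given TRi-1. Experiment 2 compared 5 young and 5 aged untreated mice with 4 aged mice given auranofin. TRi-1 and auranofin both inhibit thioredoxin reductase, the first being a small molecule made against that enzyme and the second a gold compound. The strain, genotype, age in months, dose and length of treatment are not given in the sources used here, and the controls are labelled as untreated. The RNA came from the whole organ, so in every result below fewer cells of a type and less RNA per cell cannot be told apart. Libraries were 3′ tag libraries of polyA RNA and held between 6460903 and 14814381 counts. Because such a tag is counted near the end of a transcript, levels are given as CPM (counts scaled to the library total) after TMM normalisation and were not divided by transcript length.

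Glutathione S-transferases join the tripeptide glutathione to reactive, electron-poor compounds, among them products of lipid peroxidation, epoxides and quinones, which are then exported and broken down to mercapturates. The soluble enzymes fall into classes named by Greek letters, here alpha (Gsta3, Gsta4), mu (Gstm1, Gstm2, Gstm5), pi (Gstp1), omega (Gsto1) and theta (Gstt1), while Mgst1 and Mgst3 are unrelated membrane proteins that also use glutathione. Several of these genes are textbook targets of the transcription factor NRF2, which binds antioxidant response elements, and alpha class enzymes are known from the steroid-making cells of the ovary.

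By the GENCODE M21 annotation (GRCm38, the mm10 build), the mu class genes lie together on chromosome 3: Gstm5 (ENSMUSG00000004032) at chr3:107895821-107898686 on the plus strand, Gstm2 (ENSMUSG00000040562) at chr3:107981702-107986453 and Gstm1 (ENSMUSG00000058135) at chr3:108012255-108017973, both on the minus strand. Gstp1 (ENSMUSG00000060803, chr19:4035407-4037985, minus strand) and Gsto1 (ENSMUSG00000025068, chr19:47854970-47864790, plus strand) share chromosome 19. Gsta3 (ENSMUSG00000025934) lies at chr1:21240589-21265661 on the plus strand, and Mgst3 (ENSMUSG00000026688) at chr1:167371966-167393841 on the minus strand. Gsta4 (ENSMUSG00000032348) is at chr9:78182774-78209349 on the plus strand, Gstt1 (ENSMUSG00000001663) at chr10:75783813-75798584 on the minus strand and Mgst1 (ENSMUSG00000008540) at chr6:138140316-138156755 on the plus strand.

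The results turned on Gsta3, Gstp1 and Gstm5, the 3 genes that passed the test in at least 1 comparison. Their promoter windows are shown because NRF2 is known to act through such regions, and because Gsta3 and Gstp1 were both higher in aged than in young ovaries while Gstm5 was lower. Each window runs from 250 bases before to 50 bases after the RefSeq start (GRCm38.p6), 5′ to 3′ on the gene's own strand. Capitals mark the letters TGACNNNGC, the core of the antioxidant response element, searched on both strands. The windows are chr1:21240335-21240634 (plus strand) for Gsta3, chr19:4037863-4038162 (minus strand) for Gstp1 and chr3:107895604-107895903 (plus strand) for Gstm5.
Gsta3: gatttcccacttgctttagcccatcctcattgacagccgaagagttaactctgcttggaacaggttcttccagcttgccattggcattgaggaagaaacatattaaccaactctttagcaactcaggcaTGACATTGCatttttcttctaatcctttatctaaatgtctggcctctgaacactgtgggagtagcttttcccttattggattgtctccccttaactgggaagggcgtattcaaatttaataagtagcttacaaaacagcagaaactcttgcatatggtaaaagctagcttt
Gstp1: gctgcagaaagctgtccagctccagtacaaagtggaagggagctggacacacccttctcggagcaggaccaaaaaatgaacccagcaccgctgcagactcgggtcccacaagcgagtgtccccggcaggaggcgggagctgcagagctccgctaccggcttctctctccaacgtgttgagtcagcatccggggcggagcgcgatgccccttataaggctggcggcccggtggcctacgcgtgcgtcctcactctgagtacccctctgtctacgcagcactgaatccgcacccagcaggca
Gstm5: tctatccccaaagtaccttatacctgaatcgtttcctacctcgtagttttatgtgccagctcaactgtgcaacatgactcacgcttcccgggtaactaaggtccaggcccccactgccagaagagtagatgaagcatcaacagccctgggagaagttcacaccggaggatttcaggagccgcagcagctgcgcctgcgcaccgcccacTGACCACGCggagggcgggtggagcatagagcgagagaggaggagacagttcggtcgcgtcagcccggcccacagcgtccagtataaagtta

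The Gsta3 window holds 1 match on its own strand, starting 121 bases before the start, and the Gstm5 window 1 match 42 bases before it. Among the 9 genes with a window in the RefSeq table the only other match was in Mgst1, on the opposite strand, 56 bases before the start; Gsta4 has no entry. Of all 32851 promoter windows in the table, 12.4% held a match, so the 3 matches are a description of these letters and not of binding. These exact letters are not in the Gstp1 window. It holds tgagtcagc, with g in place of their first C, and such variants were not searched in any window.

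Several libraries stood apart in their marker transcripts, and the results that moved most when one of them was left out are given below also without it. Aged replicate 3 of experiment 1 had summed hepatocyte markers of 3363 CPM over 16 genes, against 44.0 to 322 CPM in the other aged ovaries of that experiment. In experiment 2, young replicate 3 and auranofin replicate 3 had low summed steroidogenic and luteal markers (128 and 106 CPM), young replicate 3 also had oocyte markers of only 4.11 CPM, and auranofin replicate 4 had the highest adipocyte markers, at 11146 CPM. Young replicate 3 also had the lowest adipocyte and granulosa markers of its group, at 98.3 and 167 CPM. Its hepatocyte markers summed to 640 CPM, against 36.55 to 62.5 CPM in the other young ovaries of that experiment. TRi-1 replicate 4 had summed granulosa markers of 1753 CPM, against 218 to 319 CPM in the other TRi-1-treated ovaries, and the lowest adipocyte markers of its group, at 248.5 CPM. Oocyte markers ran from 175 to 340 CPM in young and from 4.96 to 9.80 CPM in aged untreated ovaries of experiment 1, and macrophage markers from 762 to 1212 CPM in young and from 6587 to 12919 CPM in aged ovaries.

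Gstm2, Gstp1 and Gstm1 were the most abundant of the 10 transcripts, with means of 479, 406 and 351 CPM over the 27 libraries. Mgst1 followed at 172 CPM and Gsta4 at 113 CPM. Gsto1, Gstt1, Gstm5 and Gsta3 averaged between 57.2 and 80.4 CPM, and Mgst3 was near the limit of detection at 2.87 CPM, or 3 to 60 counts a library. Gstm1, Gstm2 and Gstp1 together made up 64.8% ± 6.69 (SD, n = 5) of the summed level of the 10 genes in the young ovaries of experiment 2 and 72.9% ± 5.28 (SD, n = 4) in the aged ovaries of experiment 1, the lowest and highest of the 6 group means. The spread was widest for Gsta3, whose highest library was 59.2-fold above its lowest, and narrowest for Gstm1, at 4.63-fold.

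**Figure D1:**
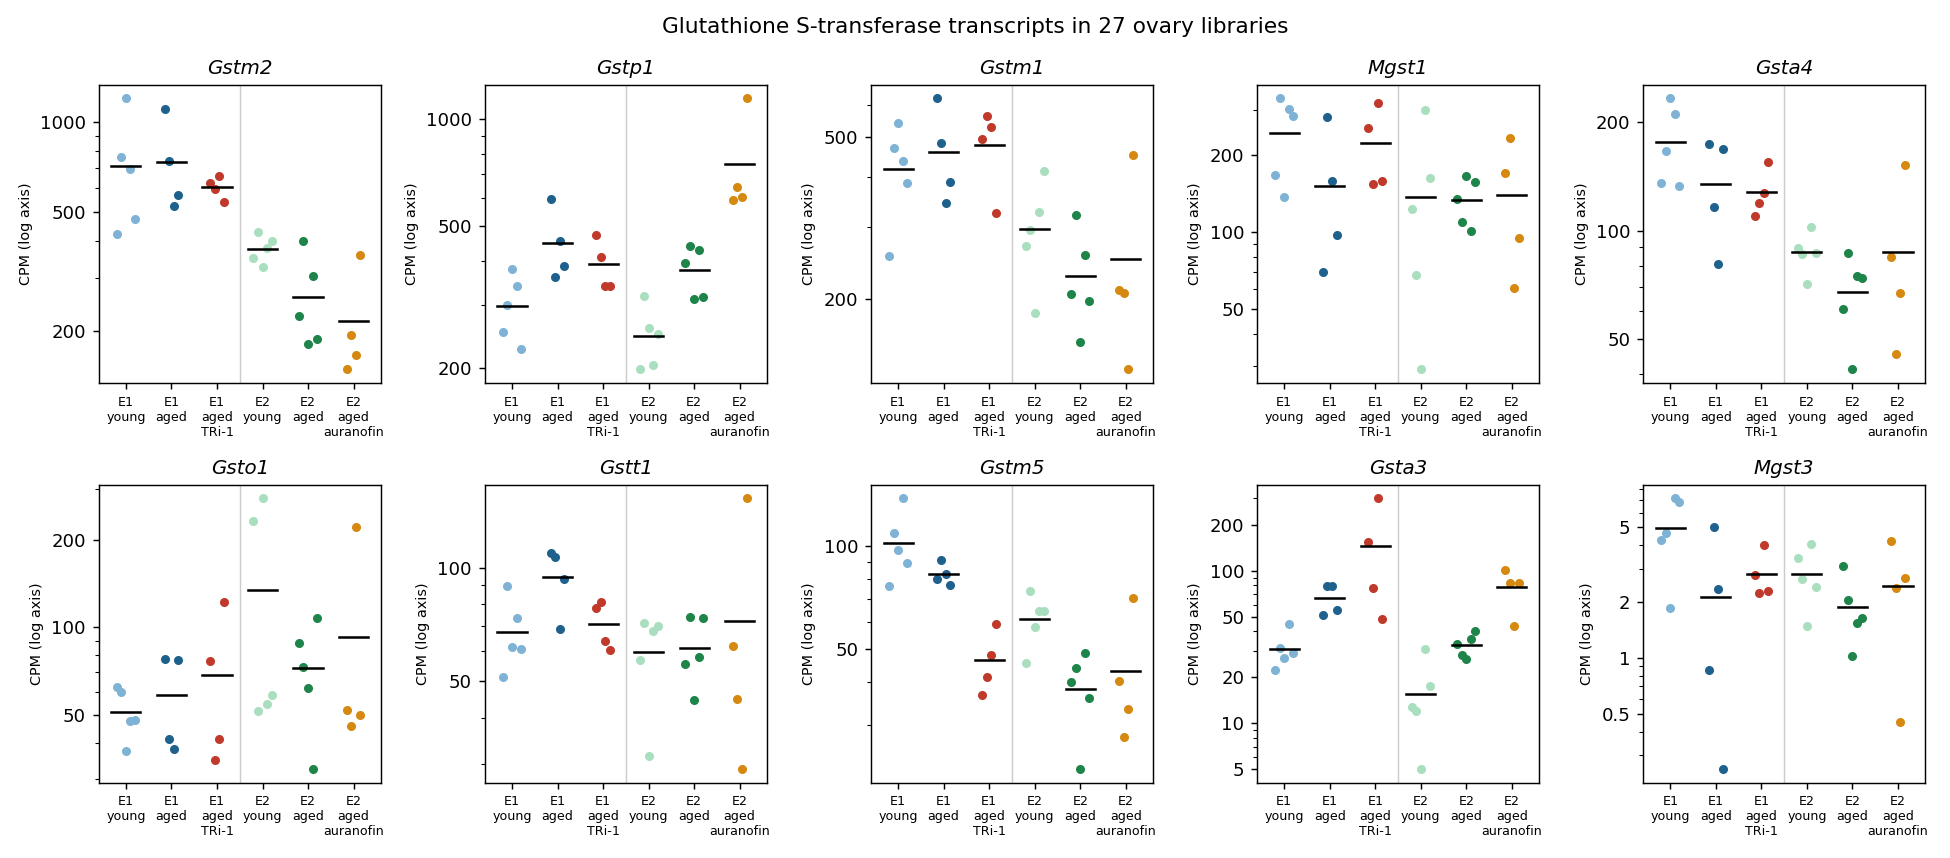
Each point is 1 library (1 mouse) and each black bar a group mean; the vertical axis is the level in CPM on a log axis that differs between panels, and E1 and E2 are experiments 1 and 2. Gsta3 covers the widest range, from 5.02 to 297 CPM, and Mgst3 lies at or under 7.17 CPM throughout.

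A gene is counted as risen or fallen where its edgeR quasi-likelihood test had a Benjamini-Hochberg adjusted p under 0.05 over all genes tested. In aged against young ovaries of experiment 1, Gsta3 and Gstp1 rose and the other 8 of the 10 did not pass, while 34.9% of 16028 genes passed; the median log2 fold change was 0.10 over the 10 genes and 0.02 over all genes. In experiment 2 none of the 10 passed for age, against 10.5% of 16309 genes, although 3 had an unadjusted p under 0.05 (23.3% of all genes did), 1 passed with DESeq2 (14.6% of the genes it gave an adjusted p) and 3 with limma-voom (16.2% of all genes); the medians were -0.38 and -0.03. With the age effects of both experiments averaged in a fit of all libraries, Gsta3 and Gstp1 rose and Gstm5 fell, against 35.3% of 17484 genes called. For a set of 10 genes these counts are near the shares over all genes, and nothing about the family is read from them.

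Neither inhibitor moved a member past the threshold against untreated aged ovaries with edgeR. For TRi-1 0.418% of all genes passed. Among the 10, 2 had an unadjusted p under 0.05, 1 passed with DESeq2 (Gstm5) and 0 with limma-voom. The shares over all genes were 16.5%, 5.27% and 0.605%. Here and below, each DESeq2 share is over the genes to which it gave an adjusted p. For auranofin 0.0184% of all genes passed, and of the 10 genes 2 had an unadjusted p under 0.05, 1 passed with DESeq2 (Gstp1) and 0 with limma-voom, against 7.04%, 0.47% and 0.202% of all genes. With auranofin 9 of 10 fold changes were positive, with a median log2 of 0.27 against 0.02 over all genes, but this count rested on replicate 4. Without that library 5 were positive and the median was 0.08, against -0.01 over all genes, and with limma-voom 5 were positive and the median was 0.02, against 0.00. With TRi-1 5 were positive and the median was -0.03, against 0.00 over all genes. Set against young ovaries, TRi-1-treated aged ovaries had Gsta3 raised and Gstm5 lowered, with 21.0% of all genes called, and auranofin-treated aged ovaries had Gsta3 and Gstp1 raised, with 8.98% called. These comparisons share the aged or the young libraries with those before them.

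**Figure D2:**
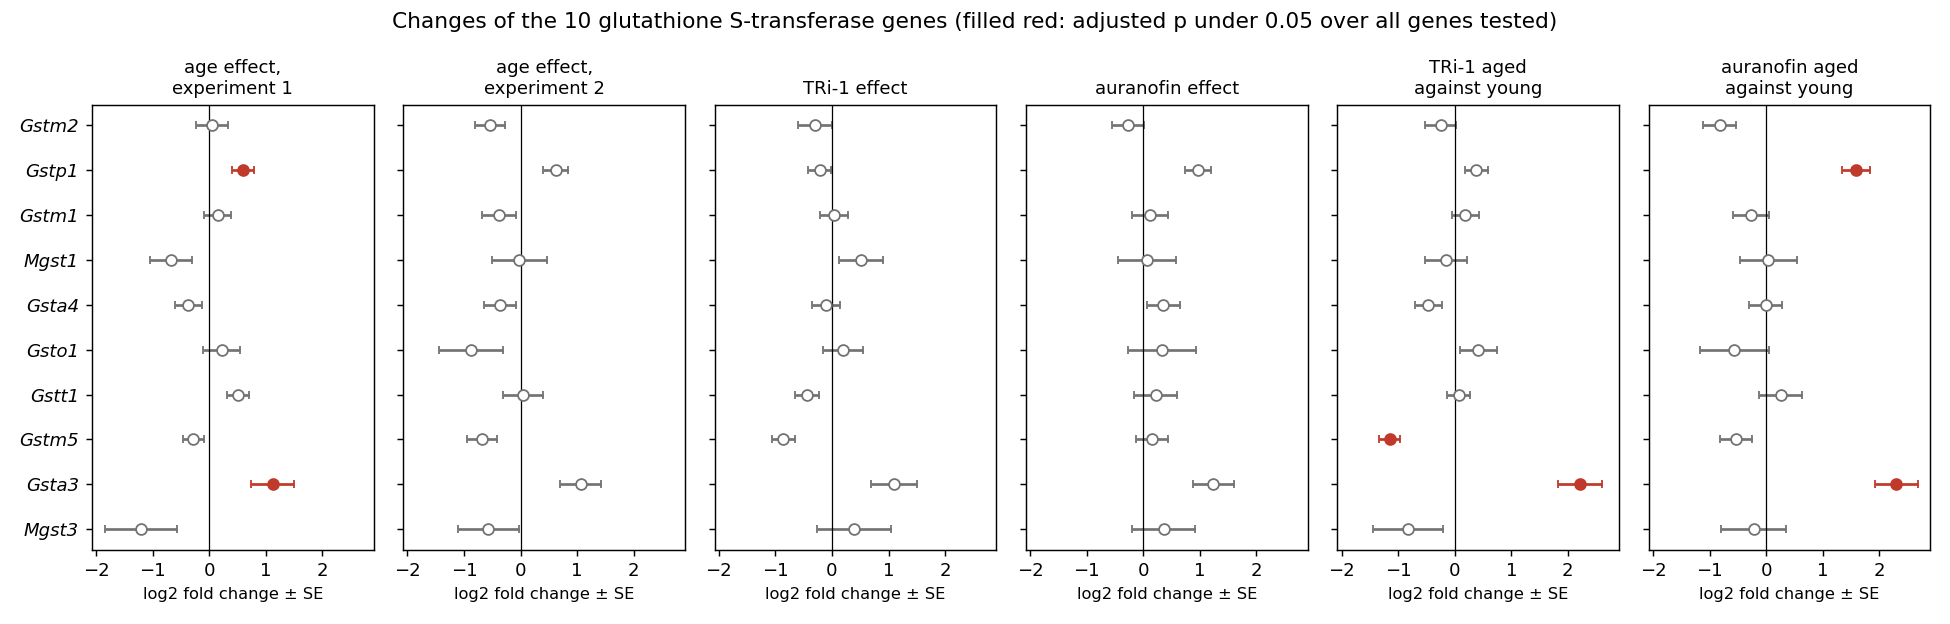
Each point is a gene's log2 fold change with its standard error in 1 of 6 comparisons, and filled red points have an adjusted p under 0.05 over all genes tested. Gsta3 lies to the right of 0 in all 6 panels and Gstp1 in 5, the exception being TRi-1 against untreated aged ovaries.

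Gsta3, an alpha class enzyme known in the mouse for conjugating aflatoxin epoxide, was 2.17-fold higher in aged than in young ovaries of experiment 1. In experiment 1 it stood at 22.5, 31.0, 26.9, 44.7 and 28.7 CPM in young replicates 1 to 5 and at 50.9, 78.8, 79.0 and 55.3 CPM in aged replicates 1 to 4. Every aged ovary exceeded every young one. The log2 fold change was 1.12 ± 0.38 (SE) (adjusted p = 0.033, edgeR). In experiment 2 the young ovaries held 12.7, 12.1, 5.02, 30.9 and 17.7 CPM and the aged ones 33.0, 28.0, 26.6, 35.6 and 40.0 CPM. Young replicate 4 overlapped the aged range, and the other young ovaries lay below it. The change there was 1.06 ± 0.36, or 2.09-fold, and missed the threshold (adjusted p = 0.076, edgeR), but passed without young replicate 4 (1.43, adjusted p = 0.013, edgeR). The age effects of the experiments differed by -0.05 ± 0.56, and averaged 1.08 ± 0.28 (adjusted p = 0.0038, edgeR).

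The experiment 1 call for Gsta3 was lost without any 1 of aged replicates 2 and 3 and young replicates 1, 2, 3 and 5, with changes of 0.98 to 1.11, whereas the average over both experiments passed in all 36 alternatives. Without the hepatocyte-rich aged replicate 3 the change was 0.98 (adjusted p = 0.088, edgeR). Gsta3 stood at 79.0 CPM in that library, with hepatocyte markers at 3363 CPM, and at 78.8 CPM in aged replicate 2, where these markers summed to 322 CPM. Summed hepatocyte markers ran from 229 to 706 CPM in the young group, with none of the 16 at 0. Their part in the Gsta3 values was not tested.

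Aged ovaries given either inhibitor had the highest Gsta3 group means. TRi-1-treated ovaries held 153, 76.7, 297 and 48.3 CPM, so 2 lay above every untreated aged ovary of experiment 1 and 1 below every one. The mean of 144 ± 112 CPM (SD, n = 4) rested on replicate 3: the log2 fold change against aged ovaries was 1.10 ± 0.41 (adjusted p = 0.20, edgeR) with it and 0.50 without it. Without replicate 4, the lowest in Gsta3 and the library rich in granulosa markers, it was 1.42 (adjusted p = 0.16, edgeR). Auranofin-treated ovaries held 101, 82.4, 43.7 and 83.4 CPM, all above the highest untreated aged value of 40.0 CPM. The change was 1.24 ± 0.37, or 2.36-fold, and did not pass (adjusted p = 0.47, edgeR). Summed adipocyte markers stood at 4346, 2796, 380 and 11146 CPM in the same 4 libraries and between 352 and 2741 CPM in untreated aged ovaries, with none of the 8 markers at 0 in either group. Replicate 3 was the lowest of its group in both. It was also lowest in macrophage, oocyte, granulosa, steroidogenic and luteal, endothelium, ovarian surface epithelium, hepatocyte and red cell markers. In smooth muscle and in oviduct and uterine epithelium markers it was the highest. The 8 adipocyte markers had a median log2 change of 1.16 with auranofin, none of them passing. Their summed log2 level correlated with that of Gsta3 at 0.68 over the 27 libraries with group means subtracted. For oocyte markers this was 0.55, for macrophage 0.46, for steroidogenic and luteal 0.42, for endothelium 0.41 and for smooth muscle -0.56. The part of any marker set in the Gsta3 values was not tested. The effects of the 2 inhibitors on Gsta3 differed by 0.13 ± 0.59, which does not show that they are alike. Against young ovaries Gsta3 was 4.63-fold higher with TRi-1 (2.21 ± 0.39, adjusted p = 8.2e-04, edgeR) and 4.93-fold higher with auranofin (2.30 ± 0.38, adjusted p = 0.0018, edgeR), and both calls held in every alternative. Without young replicate 3 and auranofin replicate 3 of experiment 2, a pair set aside after the marker levels were seen, the log2 fold changes of Gsta3 were 0.80 with age, 1.43 with auranofin and 2.23 between auranofin-treated and young ovaries, of which the last passed. The order of the group means was young of experiment 2, young of experiment 1, aged of experiment 2, aged of experiment 1, auranofin, TRi-1; neighbours overlapped in range except the untreated aged groups of the 2 experiments.

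**Figure D3:**
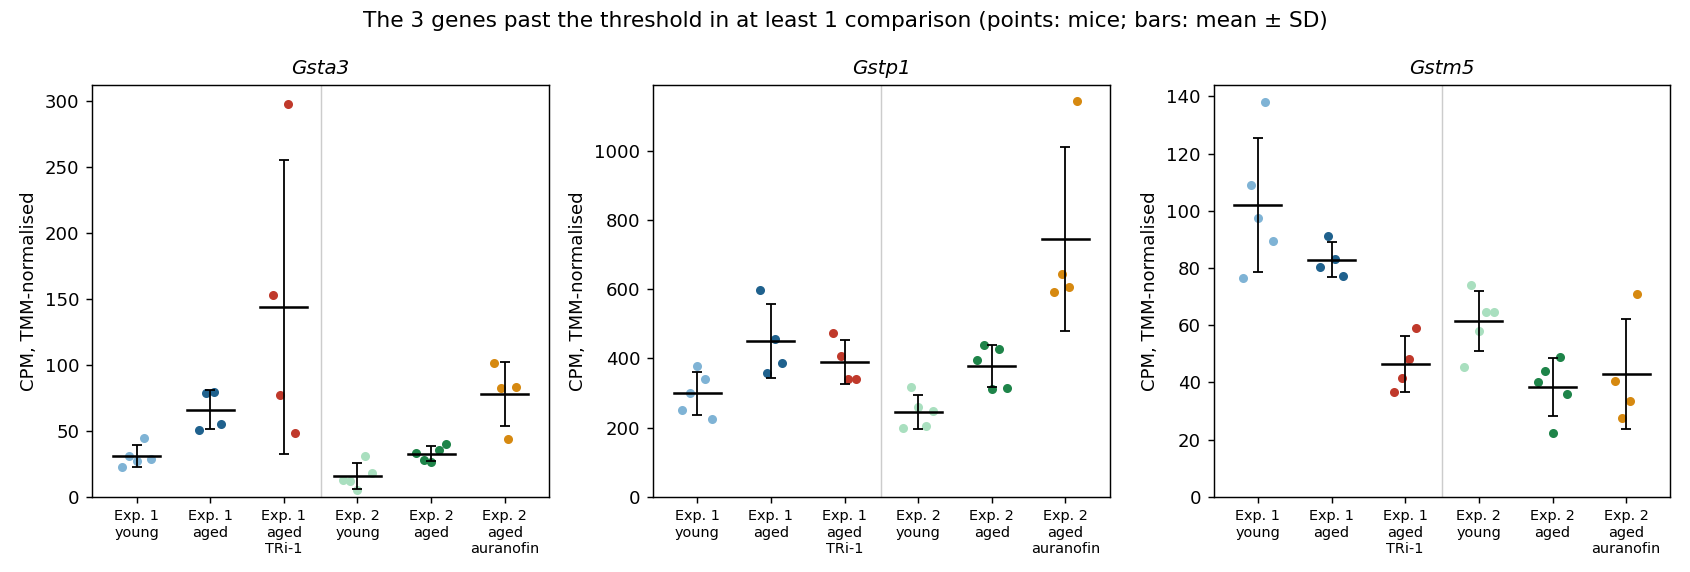
Points are mice, horizontal bars group means and vertical bars SD; the vertical axis is the level in CPM and starts at 0. Gsta3 and Gstp1 are lowest in young ovaries of both experiments, Gstp1 is highest with auranofin, and Gstm5 with TRi-1 lies below the untreated aged ovaries of experiment 1.

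The other alpha class gene, Gsta4, whose enzyme conjugates the lipid peroxidation product 4-hydroxynonenal, had lower means in aged than in young ovaries but passed in no comparison. Its mean was 175 ± 44.7 CPM (SD, n = 5) in young and 135 ± 44.2 CPM (SD, n = 4) in aged ovaries of experiment 1, and 87.1 ± 11.1 and 67.6 ± 17.3 CPM (SD, n = 5 each) in experiment 2. The log2 fold change was -0.37 in both experiments, with standard errors of 0.24 and 0.28; the average of both passed without auranofin replicate 4 (-0.42, adjusted p = 0.043, edgeR) and not with it (-0.37, adjusted p = 0.13, edgeR). Ranges overlapped between every pair of neighbouring groups in the order of levels.

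Gstp1, the pi class enzyme, also known as a binding partner of the stress kinase JNK, rose with age by 1.5-fold and was highest with auranofin. Young ovaries of experiment 1 held 252, 300, 379, 340 and 225 CPM, and aged ones 598, 359, 455 and 386 CPM. Of the 4 aged ovaries 3 exceeded the highest young value. The log2 fold change was 0.60 ± 0.20 (adjusted p = 0.029, edgeR). Young ovaries of experiment 2 held 198, 318, 258, 204 and 248.5 CPM, and aged ones 394, 439, 311, 428 and 315 CPM. There the aged ovaries overlapped the young range only through young replicate 2. The change was 0.62 ± 0.22 (adjusted p = 0.096, edgeR; adjusted p = 0.039 without auranofin replicate 4, which shares the fit), and the average of both was 0.61 ± 0.15 (adjusted p = 0.0023, edgeR), which passed in all 36 alternatives. In experiment 1 alone the call was lost without young replicate 1, 2 or 5 or aged replicate 1 or 3, with changes of 0.44 to 0.59.

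Auranofin-treated ovaries held 592, 644, 606 and 1144 CPM of Gstp1. All 4 lay above the highest untreated aged value of 439 CPM, and replicate 4 lay far above the rest. The log2 fold change was 0.97 ± 0.23, or 1.96-fold (adjusted p = 0.41, edgeR); DESeq2 gave an adjusted p of 0.026, and without replicate 4 the change was 0.70. Against young ovaries Gstp1 was 3.01-fold higher (1.59 ± 0.24, adjusted p = 8.7e-04, edgeR), and 1.30 on the log2 scale without replicate 4 (adjusted p = 0.0016, edgeR). Without auranofin replicate 3 and young replicate 3 these values were 1.04 and 1.66. TRi-1-treated ovaries held 473, 408, 341 and 340 CPM, within or below the untreated aged range. Their change against aged ovaries was -0.22 ± 0.21 (adjusted p = 0.65, edgeR). The auranofin effect exceeded the TRi-1 effect by 1.19 ± 0.32 (adjusted p = 0.19 with edgeR and adjusted p = 0.049 with DESeq2), while 0.0172% of all genes passed for this difference and none of the 10 did with edgeR. Of the 10, 2 had an unadjusted p under 0.05, 1 passed with DESeq2 and 0 with limma-voom, against 10.9%, 0.622% and 0.172% of all genes. The inhibitors were given in different experiments, so compound and experiment cannot be told apart.

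Part of the Gstp1 count could belong to a near copy. Of the 451 windows of 50 bases in the last 500 bases of its transcript, 75.2% also occur in Gstp2 or the pseudogene Gstp-ps. Gstp2 had no count in any library but aged replicate 1 of experiment 2, where it had 141 (9.12 CPM, against 394 CPM for Gstp1). Where the shared tags were counted is not known, since the level of Gstp-ps was not looked up and the counting rules are not given. For Gstm2 the shared part was 3.1% and for Gstm1 0.9%, and for the other 7 genes none was found. Gsta1, whose own end is 90.0% shared with Gsta2 and predicted genes, was at 0 counts in every library, which at this depth does not show that it is absent.

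Gstm5, a mu class enzyme, fell by 0.49 ± 0.17 on the log2 scale over the age effects of both experiments (adjusted p = 0.024, edgeR), a call that held in all 36 alternatives. Young ovaries of experiment 1 held 76.6, 109, 97.3, 138 and 89.3 CPM and aged ones 80.2, 91.3, 83.0 and 77.2 CPM. All 4 aged ovaries lay below the young median but within the young range, and the change alone was -0.28 ± 0.19 (adjusted p = 0.26, edgeR). In experiment 2 young ovaries held 45.5, 73.9, 58.1, 64.6 and 64.4 CPM and aged ones 40.1, 44.1, 22.3, 48.8 and 35.9 CPM. Of the 5 aged ovaries 4 lay below every young one, with a change of -0.68 ± 0.26 (adjusted p = 0.13, edgeR; adjusted p = 0.046 without auranofin replicate 4).

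With TRi-1, Gstm5 stood at 36.7, 41.4, 48.2 and 59.1 CPM, below every untreated aged ovary of experiment 1. The level was 55.0% of that in untreated aged ovaries (log2 -0.86 ± 0.20, adjusted p = 0.064, edgeR); it passed with DESeq2 (adjusted p = 0.0051) and among genes of at least 5 CPM with edgeR (adjusted p = 0.049). Without TRi-1 replicate 4, the highest of the 4, the change was -0.96 (adjusted p = 0.13, edgeR). Against young ovaries Gstm5 was at 45.2% (-1.15 ± 0.19, adjusted p = 6.1e-04, edgeR), below every young ovary, and that call held in all 23 alternatives. Auranofin-treated ovaries held 40.4, 27.6, 33.4 and 70.7 CPM, overlapping the untreated aged ones, with a change of 0.15 ± 0.28; against young ovaries it was -0.53 ± 0.28, and -0.89 without replicate 4 (adjusted p = 0.047, edgeR). The inhibitors' effects on Gstm5 differed by 1.01 ± 0.35 (adjusted p = 0.29, edgeR). Gstm5 overlaps the antisense gene 4933431E20Rik, Gsta3 the antisense gene Gm28836 and Gsto1 the gene Cfap43 on the opposite strand; no source used here gives the strand of counting, and reads of these pairs cannot be told apart.

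Gstm1 and Gstm2, the more abundant mu class genes, passed in no comparison. Gstm2 averaged 710 ± 308 CPM in young and 733 ± 265 CPM in aged ovaries of experiment 1, a change of 0.05 ± 0.28. In experiment 2 it averaged 377 ± 40.5 CPM in young, 259 ± 93.0 CPM in aged and 216 ± 96.2 CPM in auranofin-treated ovaries. The change of auranofin-treated against young ovaries was -0.82 ± 0.29 (adjusted p = 0.090, edgeR), and 3 of 4 treated ovaries lay below every young one; it was -1.18 without auranofin replicate 4 (adjusted p = 0.014, edgeR). The log2 fold change of Gstm1 with age was 0.15 ± 0.24 in experiment 1 and -0.39 ± 0.30 in experiment 2, and the age effects of Gstm1 and Gstm2 differed between experiments by -0.53 ± 0.40 and -0.59 ± 0.40, with adjusted p of 0.64 and 0.59 (edgeR). For that difference 0.0% of all genes passed with edgeR, none of them a member: 11.8% had an unadjusted p under 0.05, 0.957% passed with DESeq2 and 0.189% with limma-voom, and none of the 10 did in any of these.

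The balance of Gstp1 to Gstm2 separated the groups of experiment 2. This ratio within a library was chosen after its values were seen and is given with no test. It was 0.652 ± 0.11 (SD, n = 5) in young, 1.54 ± 0.282 (SD, n = 5) in aged and 3.54 ± 0.354 (SD, n = 4) in auranofin-treated ovaries, with ranges of 0.538 to 0.792, 1.10 to 1.76 and 3.20 to 3.99 that did not overlap. In experiment 1 it was 0.455 ± 0.106 in young, 0.645 ± 0.172 in aged and 0.648 ± 0.102 in TRi-1-treated ovaries, with overlapping ranges. Auranofin replicate 4, which had the highest Gstp1 of all libraries, also had the highest Gstm2 of its group at 358 CPM and the lowest ratio of its group. Without it the auranofin mean was 3.66 ± 0.329 (SD, n = 3), without auranofin replicate 3 it was 3.50 ± 0.423 (SD, n = 3), and without young replicate 3 the young mean was 0.617 ± 0.0898 (SD, n = 4). In experiment 1 the aged mean without replicate 3 was 0.569 ± 0.0995 (SD, n = 3).

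**Figure D4:**
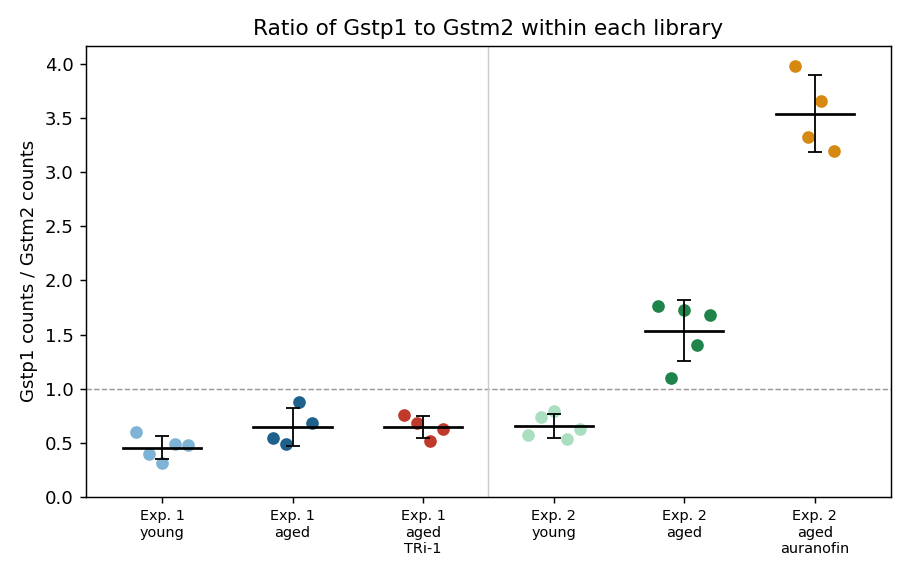
Each point is the Gstp1 count divided by the Gstm2 count in 1 library, with group means and SD as black bars, and the dashed line marks equal counts. All 4 auranofin-treated ovaries lie at 3.20 or above and all untreated aged ovaries of experiment 2 between 1.10 and 1.76.

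Gsto1, the omega class enzyme, which has a cysteine in its active site and reduces dehydroascorbate, passed in no comparison and was set apart by single libraries. Young ovaries of experiment 2 held 232, 51.4, 278, 54.6 and 58.4 CPM and auranofin-treated ones 52.1, 45.9, 222 and 49.8 CPM. The high values belonged to young replicates 1 and 3 and auranofin replicate 3. Untreated aged ovaries of that experiment lay between 32.5 and 108 CPM, with an age change of -0.88 ± 0.57 that became -0.44 without young replicate 3, and an auranofin change of 0.33 ± 0.60 that became -0.59 without auranofin replicate 3. In experiment 1 Gsto1 lay between 34.8 and 122 CPM in all 3 groups. The highest value there was TRi-1 replicate 4, without which the TRi-1 change of 0.20 became -0.19.

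The 3 libraries highest in Gsto1 were low in macrophage markers for their groups, and 2 of them had the highest smooth muscle markers of their groups. The summed level of 10 macrophage markers was 644 and 688 CPM in young replicates 1 and 3, at the low end of a young range of 644 to 1405 CPM, and 1392 CPM in auranofin replicate 3, against a group median of 7242 CPM; none of the 10 was at 0 in any group. The 5 smooth muscle markers summed to 2567 CPM in young replicate 3 and 4165 CPM in auranofin replicate 3, the highest of their groups, and to 1578 CPM in young replicate 1, the median of its group. Over the 27 libraries, with group means subtracted, log2 levels of Gsto1 and of the summed markers correlated at -0.82 for macrophages, -0.74 for adipocytes and 0.65 for smooth muscle. The values were also negative for oocyte (-0.67), ovarian surface epithelium (-0.62), steroidogenic and luteal (-0.57) and endothelium (-0.53) markers. These points share a library and its scaling, and the part of cell makeup in Gsto1 was not tested.

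**Figure D5:**
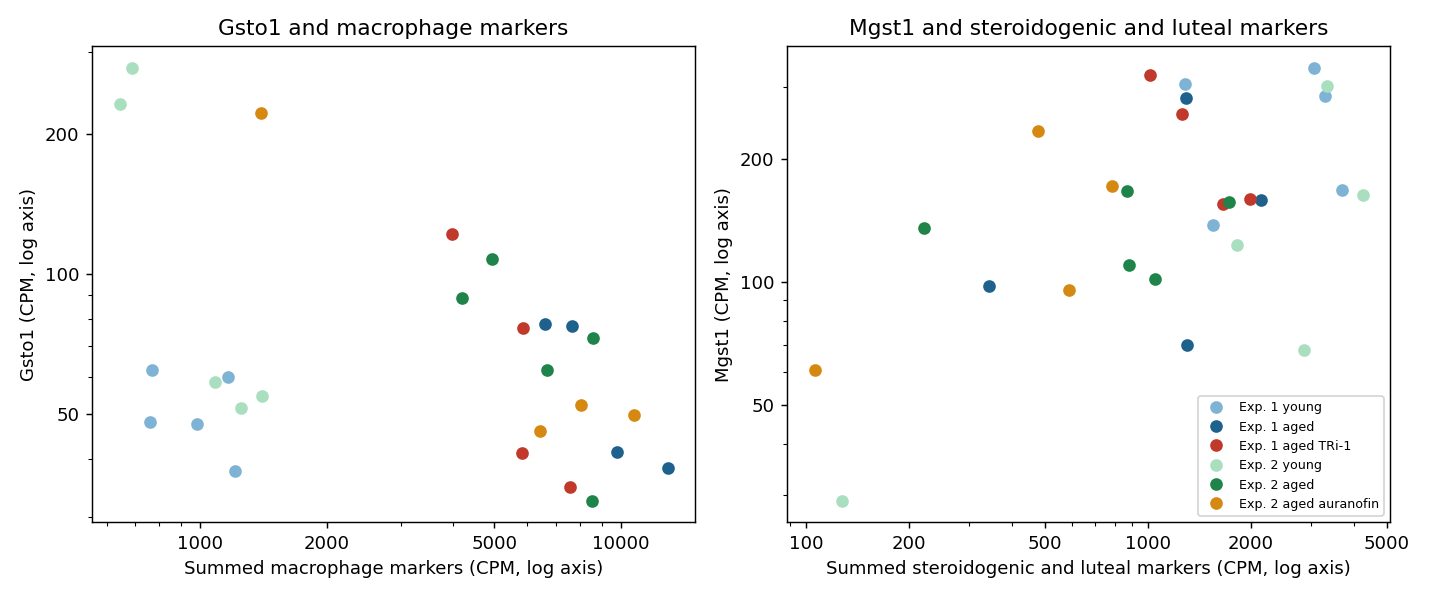
Each point is 1 library; the axes give summed marker levels and gene levels in CPM, both on log axes, with Gsto1 against macrophage markers on the left and Mgst1 against steroidogenic and luteal markers on the right. The 3 points above 200 CPM on the left are young replicates 1 and 3 and auranofin replicate 3 of experiment 2, and the lowest point on the right is young replicate 3.

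Gstt1, the theta class enzyme, stood at 67.4 ± 14.7 CPM (SD, n = 5) in young and 94.8 ± 18.7 CPM (SD, n = 4) in aged ovaries of experiment 1. The change was 0.51 ± 0.19 and just missed the threshold (adjusted p = 0.054, edgeR); it passed without young replicate 2 (0.62) or aged replicate 3 (0.59). TRi-1-treated ovaries had 71.1 ± 10.4 CPM, a change of -0.44 ± 0.21 against untreated aged ovaries (adjusted p = 0.30, edgeR). In experiment 2 the age change was 0.04 ± 0.36. Auranofin replicate 4 held 154 CPM, against 29.1 to 62.1 CPM in the other treated ovaries, and its adipocyte markers were also the highest of all libraries. Over the 27 libraries, with group means subtracted, Gstt1 correlated at 0.67 with adipocyte and 0.63 with macrophage markers. It also correlated at 0.60 with oocyte and 0.60 with ovarian surface epithelium markers, and the lowest value was -0.39, with stroma markers. The part of any marker set in the Gstt1 values was not tested.

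Mgst1, a membrane enzyme of the endoplasmic reticulum and mitochondria with peroxidase activity, passed in no comparison. In experiment 1 it averaged 246 ± 87.5 CPM in young, 152 ± 94.1 CPM in aged and 223 ± 80.2 CPM in TRi-1-treated ovaries, with an age change of -0.67 ± 0.37 (adjusted p = 0.18, edgeR) that passed without aged replicate 2 (-1.16, adjusted p = 0.019, edgeR). In experiment 2 the means were 137, 134 and 140 CPM. The lowest library of all, at 29.1 CPM, was young replicate 3, and the lowest auranofin-treated library, at 60.9 CPM, was replicate 3. Both were the lowest of their groups in steroidogenic and luteal markers, and also in oocyte, granulosa, adipocyte and endothelium markers. With group means subtracted, Mgst1 correlated at 0.55 with steroidogenic and luteal markers and at 0.59 with oocyte markers. The values were 0.46 for adipocyte, 0.37 for macrophage, 0.29 for endothelium, 0.13 for granulosa and -0.54 for smooth muscle markers. The 10 steroidogenic and luteal markers summed to 1281 to 3700 CPM in young and 342.5 to 2143 CPM in aged ovaries of experiment 1, with none at 0. The part of any of these marker sets in the Mgst1 values was not tested.

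Mgst3, a related membrane enzyme, averaged 4.97 ± 2.16 CPM in young and 2.11 ± 2.12 CPM in aged ovaries of experiment 1, and 2.80 ± 0.994 and 1.87 ± 0.781 CPM in experiment 2. The age changes were -1.21 ± 0.64 and -0.57 ± 0.54 and their average -0.91 ± 0.42 (adjusted p = 0.095, edgeR), and none passed. With limma-voom it passed in experiment 1 (-2.20, adjusted p = 0.023) and for the average (-1.44, adjusted p = 0.0083). Without aged replicate 2 of experiment 1 it passed with edgeR in both, at -2.09 (adjusted p = 0.023) and -1.39 (adjusted p = 0.013).

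Within groups the 10 genes did not move as 1 block. Of 45 pairs, compared by correlation of log2 CPM over 27 libraries with group means subtracted, 16 were above 0.5, 2 were below -0.5, and the median was 0.28. The closest pairs were Gstm1 with Gstt1 (0.84), Gstm1 with its neighbour Gstm2 (0.82), Gsta3 with Mgst1 (0.78) and Gstm2 with Gstp1 (0.78). Gsto1 had negative values with all 9 others, the lowest being -0.59 with Gsta3 and -0.54 with Gstm1. Gsta3 and Gstp1, the pair that rose with age, had -0.06 with each other. These values describe libraries that share depth and scaling and carry no test.

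Among 11343 genes of at least 5 CPM, those most like each gene by the same measure were Cpa3 (0.86), Marc2 (0.84) and Serinc3 (0.82) for Gsta3, and Psmd13 (0.88), Orai3 (0.87) and Aldh2 (0.87) for Gstp1. For Gstm5 they were Uqcrh (0.82), Pttg1 (0.81) and Rpl15 (0.80), for Gstm1 Rpp21 (0.86), Serpinb6a (0.85) and 1810058I24Rik (0.85), and for Gstm2 1810022K09Rik (0.84), Sdhb (0.83) and Aptx (0.83). Gsto1 was most like Tmprss2 (0.89), Tmem158 (0.87) and Chdh (0.85), Gsta4 most like Rps19 (0.88), Spata24 (0.87) and Cox7a2l (0.87), Gstt1 most like Olfml1 (0.88), Cpz (0.86) and Snord55 (0.86), and Mgst1 most like Ndufb4 (0.92), Id3 (0.92) and Ncoa4 (0.90). Mgst3 was under the level required.

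Of the other glutathione transferases and related membrane proteins, 21 were in the table. With age in experiment 1, 4 of 15 tested rose and 1 fell, near the 34.9% called over all genes, with a median of 0.22 against 0.02: Alox5ap, which presents arachidonic acid for leukotriene synthesis, by 1.48 ± 0.30, Gstm4 by 1.35 ± 0.36 and Gstt3 by 0.68 ± 0.23, while Gstt2 fell by 1.17 on the log2 scale. Without the hepatocyte-rich aged replicate 3, 1 rose and 1 fell: Alox5ap stood at 1.05, and Gstm4 at 0.93 (adjusted p = 0.060, edgeR) and Gstt3 at 0.64 (adjusted p = 0.065, edgeR) no longer passed. Gstt3 was also lost without young replicate 1, 2 or 5 or aged replicate 1, at 0.59 to 0.63, and 2 genes rose without each of those young libraries. In experiment 2, 2 of 14 rose, against 10.5% of all genes called, Alox5ap by 1.56 ± 0.35 and the leukotriene C4 synthase gene Ltc4s by 2.04 ± 0.52, of which Ltc4s did not pass without young replicate 1 (1.86) or aged replicate 5 (1.78). No gene of this list passed for TRi-1 or for auranofin with edgeR, against 0.418% and 0.0184% of all genes. An unadjusted p under 0.05 was reached by 3 and 2, against 16.5% and 7.04% of all genes. In auranofin-treated against young ovaries Gstm7 fell by 1.46 on the log2 scale (adjusted p = 0.0042, edgeR) and Alox5ap rose by 1.35 ± 0.36, a call lost without any 1 of 6 libraries, at 1.14 to 1.29. Gsta2, an alpha class near relative of Gsta3, averaged 16.4 ± 14.6 CPM with TRi-1 and 2.78 ± 2.48 CPM in untreated aged ovaries, a difference of 2.55 ± 0.81 that did not pass (adjusted p = 0.15, edgeR). Without TRi-1 replicate 3 the difference was 1.83 (adjusted p = 0.32, edgeR). Of the windows at the end of the Gsta2 transcript, 51.0% also occur in Gsta1 or predicted genes. Every untreated aged ovary of either experiment held more macrophage marker transcripts than every young one, and their part in the values of Alox5ap and Ltc4s was not tested.

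The next list held 25 genes that make glutathione, export its conjugates or process them. In experiment 1, 8 of 22 rose with age and none fell. Of all 16028 genes 2958 rose and 2632 fell, which made 34.9% called in either direction. The median was 0.76 over the list against 0.02 over all genes. The genes that rose were led by Oplah, the 5-oxoprolinase gene (1.58 ± 0.22), and Dpep2, a dipeptidase gene (2.53 ± 0.51, and 1.53 without aged replicate 3). Aged replicate 3 had the highest macrophage markers of its group, at 12919 CPM, and their part in the Dpep2 values was not tested. In experiment 2, 1 of 23 rose with age, Dpep2 by 3.33 ± 0.57, against 10.5% of all genes called; 3 rose without young replicate 3, 3 rose and 1 fell without auranofin replicate 4, and 1 rose and 1 fell without young replicate 5. Auranofin raised Gclm, the modifier subunit of the enzyme that limits glutathione synthesis, from 23.7 ± 2.93 CPM (SD, n = 5) to 108 ± 34.2 CPM (SD, n = 4), a change of 2.18 ± 0.26 (adjusted p = 0.0020, edgeR), and no other gene of this list. That call held without any 1 of the 14 libraries, at 2.02 to 2.38. With TRi-1 none of 22 passed with edgeR (2 at an unadjusted p under 0.05, against 16.5% of all genes). Gclm stood at 38.4 ± 13.8 CPM with TRi-1 against 32.2 ± 7.87 CPM.

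Of 16 known NRF2 targets outside the family, 3 rose with auranofin: Hmox1, the haem oxygenase, by 4.12 ± 0.36, Srxn1, sulfiredoxin, by 2.42 ± 0.28, and Gclm, where 0.0184% of all genes passed; the median over the 16 was 1.18, against 0.02 over all genes, and 0.94 without auranofin replicate 4. The same 3 passed without any 1 of the 14 libraries, Hmox1 at 3.82 to 4.32 and Srxn1 at 2.18 to 2.61. The largest auranofin change among the 10 transferases was that of Gsta3, at 1.24 ± 0.37. With TRi-1 none of the 16 passed with edgeR (4 at an unadjusted p under 0.05, against 16.5% of all genes) and the median was -0.06. The difference between the inhibitors passed for Hmox1 (4.81 ± 0.54) and Srxn1 (2.62 ± 0.46) and for no transferase of the 10. For Hmox1 it passed without any 1 of the 27 libraries, at 4.52 to 5.22, whereas for Srxn1 it was lost without any 1 of 15 of them, at 2.36 to 2.65, among them aged replicate 3 (2.40, adjusted p = 0.15, edgeR) and TRi-1 replicate 4 (2.38, adjusted p = 0.20, edgeR) of experiment 1. With age 8 of the 16 rose and none fell in experiment 1, against 34.9% of all genes called in either direction. Without aged replicate 3, 6 rose. In experiment 2, 4 rose, against 10.5%, with 6 rising without young replicate 3, and 6 rising and 1 falling without auranofin replicate 4. Fth1 and Ftl1, the ferritin subunits, rose in both experiments.

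Enzymes that clear aldehydes, carbonyls and epoxides, which share substrates with the transferases, split in direction. With age in experiment 1, 7 of 23 rose and 4 fell, against 34.9% of all genes called, and 4 to 6 rose and 2 to 4 fell with 1 library left out. Cbr1, a carbonyl reductase, rose by 0.95 ± 0.16 and Aldh3b1, an aldehyde dehydrogenase, by 1.07 ± 0.24, while Ptgr1 fell by 0.88 and the soluble epoxide hydrolase Ephx2 by 1.86 on the log2 scale. In experiment 2 none of 22 passed for age or for auranofin with edgeR, against 10.5% and 0.0184% of all genes. An unadjusted p under 0.05 was reached by 0 and 2, against 23.3% and 7.04% of all genes. Cbr3, a carbonyl reductase, was higher than in young ovaries with both inhibitors, by 1.54 ± 0.28 with TRi-1 and 1.91 ± 0.33 with auranofin. In these comparisons 21.0% and 8.98% of all genes were called. Cbr3 also rose with age in untreated ovaries of experiment 1 (0.81, adjusted p = 0.033, edgeR), a call lost without any 1 of 8 libraries. Against untreated aged ovaries its change was 0.73 with TRi-1 (adjusted p = 0.23, edgeR) and 1.54 with auranofin (adjusted p = 0.27, edgeR), and neither passed.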

How the data were processed

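The authors deposited whole-number counts per gene in 1 table of 51789 rows and 27 columns, from QuantSeq libraries of ovary polyA RNA, per the labels' protocols. RSEM 1.2.3, DESeq2 and the mm10 build appear in the submitters' processing notes without a stated role; annotation, filters and strand are not given in the sources used here. Columns were matched to samples by the labels' short names. Labels give a mouse group and a replicate number; each library was taken as 1 mouse, and p-values measure the spread between these samples. No 2 libraries of a group held identical counts.

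Counts were analysed as deposited with edgeR 4.0.16 in R 4.3.3: genes were kept by filterByExpr, scaled by TMM and tested by quasi-likelihood F tests on group means, and p-values were adjusted by Benjamini-Hochberg over all genes (threshold 0.05). Each experiment's 3 groups entered together; averages and differences over experiments came from a fit of all 27 libraries. An SE is |log2 fold change|/√F. Log2 CPM used a prior count of 2. DESeq2 1.42.0 and limma 3.58.1 (voom with quality weights) were alternatives, with other filters, RLE factors, the replicate number as a block, red cell genes left out, 1 library left out at a time, and sets of libraries left out; for the lists, the ratio and the counts of directions, leaving out a library was added after seeing the data. The tests were checked on simulated counts.

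The 10 genes and all gene and marker lists were chosen with earlier results of these data known. All 10 genes are named in every comparison; from each list, up to 4 genes that passed with the smallest p, plus near copies; as most alike, the 3 genes with the highest correlation. Promoters are RefSeq's.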

Additional observations from a re-analysis of the deposited data

Results flagged for a closer look

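Of 60 sets of values (10 genes in 6 groups), 2 held a library far from the rest of its group by Dixon's criterion; chance alone flags about 1 in 20. Both were in auranofin-treated ovaries. Gstp1 stood at 1144.2 CPM in auranofin replicate 4, with the next library at 644.4 CPM, a gap of 0.905 of the group's range; that library also had the highest adipocyte markers of all libraries, at 11145.8 CPM. Gsto1 stood at 221.5 CPM in auranofin replicate 3, with the next library at 52.1 CPM, a gap of 0.965 of the range; that library had the lowest macrophage markers of its group, at 1392.1 CPM.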

How the results depend on the processing

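For age in experiment 1, 0 of the 10 genes passed with the replicate block and 0 with 3 libraries of experiment 1 left out together (young replicate 5, aged replicate 3, TRi-1 replicate 1), and 0 to 3 with 1 library left out. For age in experiment 2, 1 passed with DESeq2 (Gsta3), 3 with limma-voom (Gsta3, Gstm5, Gstp1), 1 with the replicate block (Gsta3), 2 in the fit of all 27 libraries (Gstm5, Gstp1) and 0 to 2 with 1 library left out. DESeq2 called 1 gene each for TRi-1 (Gstm5), auranofin (Gstp1) and the difference of the inhibitors (Gstp1), and a minimum of 5 CPM called 1 for TRi-1 (Gstm5). For auranofin-treated against young ovaries 2 to 4 passed with 1 library left out, 4 of them (with Gstm2 and Gstm5) without auranofin replicate 4. The 25 same-numbered pairs of libraries correlated from -0.25 to 0.43 and 4 matched best with their own number, so the numbers were not taken to pair mice.

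Every change of direction concerned a change that had not passed, most of them near 0. With the replicate block Gstm2 became -0.04 for age in experiment 1, Mgst1 0.27 for age in experiment 2 and -0.02 for auranofin, and Gsta3 0.21 for the difference of age effects. Without the 3 libraries of experiment 1, Gstm1 became -0.05 for TRi-1, Gstt1 -0.01 for TRi-1 against young, and Gsta3 0.07 for the difference of age effects. Without young replicate 3 and auranofin replicate 3 of experiment 2, a set chosen after seeing the data, Gstt1 became -0.15 for age, Gsto1 -0.59 for auranofin and Mgst1 -0.02 for auranofin against young. With limma-voom Gstt1 became -0.04 for age in experiment 2, and for auranofin Gstm1 became -0.13, Gstm5 -0.04, Gsto1 -0.13 and Gstt1 -0.20; against young Gstt1 became -0.24. With a minimum of 5 CPM Gstt1 became -0.01 for age in experiment 2 and Mgst1 -0.03 for auranofin against young, and in the fit of all libraries Gsta4 became 0.00 there. The cause was not tested.

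With 1 library left out, log2 fold changes crossed 0 as follows. For age in experiment 1 Gstm1 ran from -0.03 to 0.27 and Gstm2 from -0.20 to 0.34. For TRi-1 Gsta4 ran from -0.24 to 0.03, Gstm1 from -0.04 to 0.22 and Gsto1 from -0.19 to 0.47. For TRi-1 against young Gstm2 ran from -0.39 to 0.04, Gsto1 from -0.03 to 0.63 and Gstt1 from -0.02 to 0.19. For age in experiment 2 Gstt1 ran from -0.12 to 0.14 and Mgst1 from -0.28 to 0.46. For auranofin Gsta4 ran from -0.04 to 0.57, Gstm1 from -0.32 to 0.32, Gstm5 from -0.18 to 0.32, Gsto1 from -0.59 to 0.58, Gstt1 from -0.44 to 0.47, Mgst1 from -0.30 to 0.30 and Mgst3 from -0.06 to 0.70. For auranofin against young Gsta4 ran from -0.43 to 0.17, Gstt1 from -0.42 to 0.48, Mgst1 from -0.36 to 0.51 and Mgst3 from -0.67 to 0.09. For the difference of age effects Gsta3 ran from -0.27 to 0.35 and Gstp1 from -0.06 to 0.21, and for the difference of the inhibitors Gsta3 ran from -0.22 to 0.76. Depth limits Mgst3 most, at 3 to 60 counts a library.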

Other observations

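Levels in the untreated groups of the same age are given with no test, since experiment and library preparation cannot be told apart. The ranges of the experiments did not overlap for 2 of the 10 genes in young ovaries and 4 in aged ovaries, all higher in experiment 1, while 6.33% and 6.09% of 17484 genes did not overlap in either direction. Gstm5 was without overlap at both ages, at 76.6 to 138 against 45.5 to 73.9 CPM in young and 77.2 to 91.3 against 22.3 to 48.8 CPM in aged ovaries. Gsta4 lay between 133 and 232 CPM in young ovaries of experiment 1 and between 71.1 and 102 CPM in those of experiment 2, and the ranges did not overlap. In aged ovaries Gstm2 lay between 522 and 1105 CPM in experiment 1 and between 180 and 400.1 CPM in experiment 2, Gstm1 between 345 and 622 and between 157 and 323 CPM, and Gsta3 between 50.9 and 79.0 and between 26.6 and 40.0 CPM, again without overlap. Gstp1 overlapped between the experiments at both ages. The summed level of the 10 genes was 2234 ± 482 CPM (SD, n = 4) in aged ovaries of experiment 1 and 1273 ± 209 CPM (SD, n = 5) in those of experiment 2.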
